A study of Mus musculus with 9 samples.

Results

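Acta2, Actc1 and Tagln are the 3 genes for contractile muscle proteins on a mouse wound healing PCR array of 84 genes. They were chosen by name, as genes of smooth muscle and myofibroblasts, and all 3 gave a signal in each of the 9 arrays. The study asked how dipotassium glycyrrhizate (DPG), the dipotassium salt of a liquorice compound, acts on colonic wound healing genes in acute colitis. All mice were C57bl6J females aged 8 to 9 weeks, with no deletion or transgene named in the labels. DSS+DPG mice drank 3% dextran sodium sulphate (DSS), an agent that injures the colonic epithelium, for 7 days and received 8 mg/kg/day DPG by oral gavage. DSS mice drank 3% DSS over the same 7 days, and untreated (UN) mice drank regular water. Colon RNA of 5 mice was pooled for each group and run on 3 arrays, so the p-values below measure the spread between arrays of 1 pool and not the spread between mice.

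Smooth muscle contracts when myosin pulls on thin filaments built largely of alpha actin. In the colon these cells form the outer muscle coat and the thin muscularis mucosae, and myofibroblasts under the epithelium, which share part of this gene set, contract and lay down matrix during repair. Transcription of many contractile genes is driven by serum response factor, which binds the CArG box, together with its partner myocardin or with myocardin-related factors that respond to actin polymerisation. Acta2 encodes smooth muscle alpha actin, Actc1 encodes cardiac alpha actin, the main sarcomeric actin of the heart, and Tagln encodes transgelin, an actin-binding protein abundant in smooth muscle. In RefSeq's GRCm38.p6 annotation Acta2 lies on chromosome 19, Actc1 on chromosome 2 and Tagln on chromosome 9. Acta2 and Actc1 are closely related paralogs, and whether the primers of either amplify the other was not tested.

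The promoters of the 2 actin genes are shown because the CArG box is the element that links contractile genes. The promoter set used held no entry for Tagln, so its promoter was not searched. Each line holds the 250 bases before the annotated start in RefSeq (GRCm38.p6, minus strand), 5′ to 3′, and capitals mark CArG boxes, allowing 1 G or C among the 6 inner bases.
Acta2, chr19:34255374-34255623: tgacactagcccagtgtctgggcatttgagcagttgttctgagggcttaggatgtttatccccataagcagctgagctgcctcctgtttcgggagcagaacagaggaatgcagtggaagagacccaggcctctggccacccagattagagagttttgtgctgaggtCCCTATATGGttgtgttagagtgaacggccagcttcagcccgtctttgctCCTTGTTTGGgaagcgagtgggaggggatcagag
Actc1, chr2:114052876-114053125: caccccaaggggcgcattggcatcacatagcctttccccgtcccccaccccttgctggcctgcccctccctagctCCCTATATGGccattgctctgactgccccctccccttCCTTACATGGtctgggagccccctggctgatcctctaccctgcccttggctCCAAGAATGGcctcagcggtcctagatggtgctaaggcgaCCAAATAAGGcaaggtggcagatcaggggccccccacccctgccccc
The Acta2 sequence held no exact CArG box and 2 with 1 substituted base, CCCTATATGG at 84 to 75 bases and CCTTGTTTGG at 34 to 25 bases before the start. The Actc1 sequence held 1 exact box, CCAAATAAGG at 47 to 38 bases before the start. It also held 3 with 1 substituted base, CCCTATATGG at 175 to 166 bases, CCTTACATGG at 138 to 129 bases and CCAAGAATGG at 87 to 78 bases before the start. The box reads the same on both strands, so both were covered by the search. Of 32851 mouse promoters cut to the same 250 bases, 1.47% held an exact box, 7.24% held a box with 1 substituted base and 0.67% held at least 2 boxes of either kind. The word CCCTATATGG, singled out after the 2 sequences had been read, stood on either strand in 9 of them, or 0.0274%. These are matches of letters in a window, and binding was not measured.

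Signal on the array is read as the threshold cycle (Ct), which is on a log2 scale and is later where there is less template. A level was taken as delta Ct, a gene's own Ct less the average of 5 housekeeping genes (Actb, B2m, Gapdh, Gusb and Hsp90ab1) on the same array, and a fold change as minus the difference in delta Ct. The median Ct of the 84 genes was 29.6 to 29.69 on DSS+DPG arrays, 26.57 to 26.77 on DSS arrays and 27.84 to 27.89 on UN arrays. The 3 reverse transcription control wells gave much the same Ct in all groups, 23.7 to 23.76 on DSS+DPG, 23.83 to 24.06 on DSS and 23.9 to 24.03 on UN arrays. The mean Ct of the housekeeping genes was 23.44 in DSS+DPG, 22.23 in DSS and 22.00 in UN, so the reference itself came 1.21 cycles later in DSS+DPG than in DSS. The panel held no gene found only in the colon, but the epithelial cadherin Cdh1 was amplified on all arrays, at Ct 24.96 to 24.98 in DSS+DPG, 24.01 to 24.09 in DSS and 22.7 to 22.83 in UN. The layers of the colon wall that went into the RNA are not given in the sources used here. In RNA of whole tissue, fewer muscle cells and less contractile RNA per cell cannot be told apart. The 3 arrays per group limit the precision of each value.

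Acta2 had the most even levels of the contractile genes relative to the housekeeping genes. Its Ct was 24, 23.95 and 24.01 on the DSS+DPG arrays, 22.44, 22.33 and 22.35 on the DSS arrays and 20.65, 20.66 and 20.64 on the UN arrays. The groups did not overlap, with the latest Ct in DSS+DPG and the earliest in UN. Most panel genes did not overlap either. In delta Ct the share was 95.2% in DSS against UN, 90.5% in DSS+DPG against DSS and 93.9% in DSS+DPG against UN. Relative to the housekeeping genes its delta Ct averaged 0.55 ± 0.023 in DSS+DPG, 0.14 ± 0.022 in DSS and -1.35 ± 0.023 in UN (SD, n = 3 arrays each). On this scale, too, the level was lowest in DSS+DPG and highest in UN.

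Actc1 was amplified late, so its signal came from little template. Its Ct was 33.38, 33.31 and 33.35 on the DSS+DPG arrays, 33.22, 33.26 and 33.24 on the DSS arrays and 30.09, 29.68 and 29.8 on the UN arrays. The raw Ct of DSS+DPG and DSS lay close together, 0.11 cycles apart on average, while UN was 3.49 cycles earlier than DSS+DPG and 3.38 cycles earlier than DSS. Its delta Ct averaged 9.91 ± 0.025 in DSS+DPG, 11.01 ± 0.096 in DSS and 7.86 ± 0.22 in UN (SD, n = 3 arrays each). Relative to the housekeeping genes, then, the level of Actc1 was lowest in DSS, not in DSS+DPG.

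Tagln was the least evenly measured in UN. Its Ct was 23.91, 23.86 and 23.92 on the DSS+DPG arrays, 21.6, 21.53 and 21.58 on the DSS arrays and 20.17, 20.96 and 20.79 on the UN arrays. The first UN array came well before the other UN arrays, and the SD of 0.42 cycles in UN was the fifth largest of the 84 genes. Its delta Ct averaged 0.46 ± 0.023 in DSS+DPG, -0.66 ± 0.045 in DSS and -1.36 ± 0.41 in UN (SD, n = 3 arrays each). The groups did not overlap, like those of most panel genes, and stood in the same order as for Acta2.

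**Figure D1:**
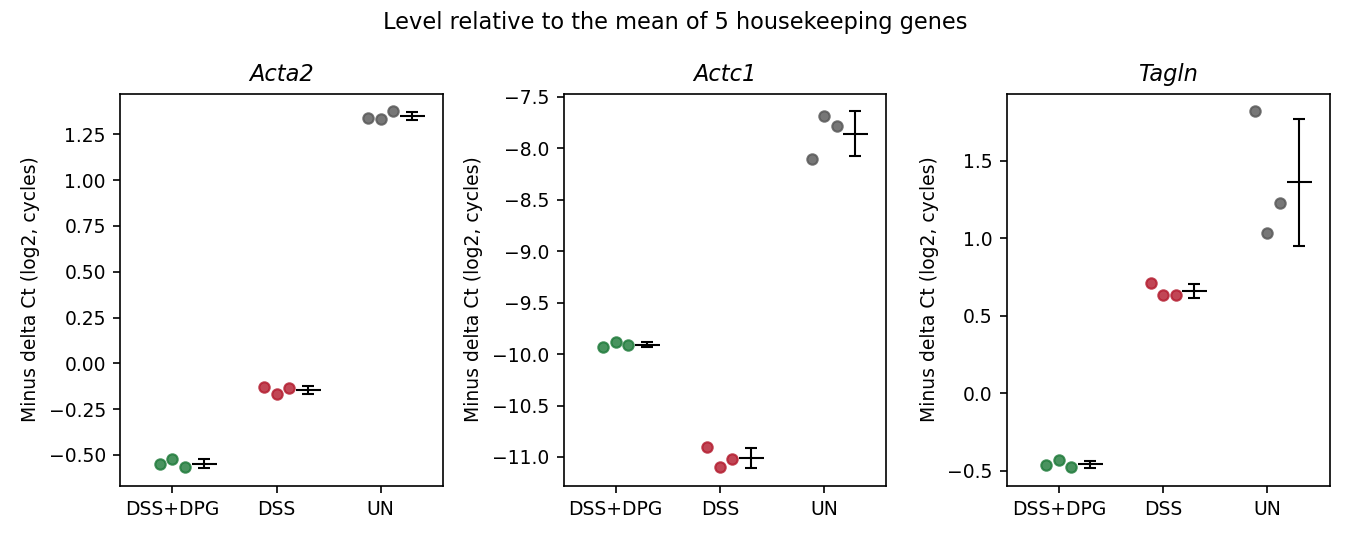
Minus delta Ct (log2 scale, cycles, higher means more RNA) of Acta2, Actc1 and Tagln relative to the mean of 5 housekeeping genes on the 3 arrays of each group, with the mean and SD beside the points. Acta2 and Tagln are lowest in DSS+DPG and highest in UN, Actc1 is lowest in DSS, and the UN arrays of Tagln are the most spread.

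The comparison of DSS with UN addressed what colitis does to these genes, and all 3 were lower in DSS. Actc1 was 8.89-fold lower (log2 fold change -3.15, SE 0.10, limma adjusted p = 2.12e-08), and no other gene of the 84 had a lower fold change. Acta2 was 2.81-fold lower (log2 fold change -1.49, SE 0.028, limma adjusted p = 8.22e-10), the third lowest of the 84. Tagln was 1.62-fold lower (log2 fold change -0.70, SE 0.18, limma adjusted p = 0.00606), the 17th lowest. The level left in DSS was thus 11.2% of UN for Actc1 (95% interval 9.49% to 13.3%), 35.5% for Acta2 (34.0% to 37.2%) and 61.6% for Tagln (46.2% to 82.1%).

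These calls stand against a panel in which 91.7% of the 84 genes tested passed in either direction and 29.8% passed as lower, and in which 95.2% had arrays that did not overlap between DSS and UN. The median over the 84 genes was a log2 fold change of 0.71, with 52 genes higher and 25 lower, so the contractile genes moved against the larger share of the panel. This split rests on the reference, and with the panel median as the reference it was 21 higher and 51 lower. Acta2 and Actc1 were lower in DSS under all 11 other references tried, most of them built from the same housekeeping genes, and raw Ct among them. Tagln was lower past the test under 8 of the 11. It did not pass with B2m left out (log2 fold change -0.37), against Gapdh on its own (-0.22) or against the 3 genes Itga3, Mif and Hsp90ab1 (-0.29). Without the third array of each group the Tagln difference was -0.75, with an adjusted p of 0.0561.

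Rac1, a small GTPase that drives membrane ruffling through actin, belongs to the array's cytoskeleton class with the contractile genes, and it is given here for itself and not for the class. Rac1 had a Ct of 22.82, 22.68 and 22.77 in DSS against 21.42, 21.35 and 21.39 in UN, without overlap. It was 2.20-fold lower in DSS (log2 fold change -1.14, limma adjusted p = 5.89e-09), and lower too with the panel median as the reference (-2.58) and in raw Ct (-1.37).

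TGF beta is the cytokine that induces contractile genes in myofibroblasts, and 6 genes around it are given singly. In DSS against UN the cytokine Tgfb1 had a log2 fold change of 1.24, but -0.21 with the panel median as the reference, both past the test. The accessory receptor Tgfbr3 had 1.31, past the test, and -0.13 with the panel median, which did not pass. The integrin subunits that can release active TGF beta gave log2 fold changes of 0.87 for Itgav, 0.45 for Itgb6 and -0.23 for Itgb5. Each passed the test, and with the panel median as the reference all were lower (-0.57, -0.99 and -1.67). In raw Ct Tgfb1 (1.01), Tgfbr3 (1.08), Itgav (0.64) and Itgb6 (0.22) were higher and Itgb5 (-0.46) lower, each past the test. The matricellular gene Ctgf, a target of TGF beta, had a log2 fold change of -0.77 that did not pass (limma adjusted p = 0.0569). Its arrays did not overlap, at delta Ct 3.768 to 3.798 in DSS and 2.964 to 3.052 in UN. Ctgf was lower past the test with the panel median as the reference (-2.21) and in raw Ct (-0.997).

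The comparison of DSS+DPG with DSS addressed what DPG adds in colitis, and here the contractile genes went different ways. Relative to the housekeeping genes, Acta2 was 1.32-fold lower in DSS+DPG (log2 fold change -0.40, SE 0.028, limma adjusted p = 2.01e-06). Tagln was 2.17-fold lower (log2 fold change -1.12, SE 0.18, limma adjusted p = 0.000435). Its SE comes from 1 fit of all groups and so includes the UN scatter (SD of delta Ct 0.41, beside 0.023 in DSS+DPG and 0.045 in DSS). Actc1 was 2.15-fold higher (log2 fold change 1.10, SE 0.10, limma adjusted p = 1.63e-05), the fourth highest of the 84. In this comparison 89.3% of the 84 genes passed, 76.2% as lower and 13.1% as higher, 90.5% had arrays that did not overlap, and the median log2 fold change was -1.30. Acta2 and Tagln thus fell by less than the median panel gene, and Acta2 ranked 62nd and Tagln 46th from the lowest.

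The directions of Acta2, Tagln and Actc1 in this comparison depended on the reference. In raw Ct, DSS+DPG was later than DSS by 1.61 cycles for Acta2, by 2.33 cycles for Tagln and by 0.11 cycles for Actc1, against 1.21 cycles for the mean of the housekeeping genes. The housekeeping genes moved unequally, by 1.63 cycles for Actb, 1.71 for B2m, 1.06 for Gapdh, 1.25 for Gusb and 0.39 for Hsp90ab1, and Actb is itself an actin gene. Of the 11 other references, 9 gave Actc1 higher past the test, while it missed with Itga3, Mif and Hsp90ab1 (log2 fold change 0.28) and in raw Ct (-0.11). For Acta2, 9 gave a fall, Actb alone gave 0.02 without passing, and the panel median gave a rise of 1.37. For Tagln, 10 gave a fall and the panel median a rise of 0.66.

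**Figure D2:**
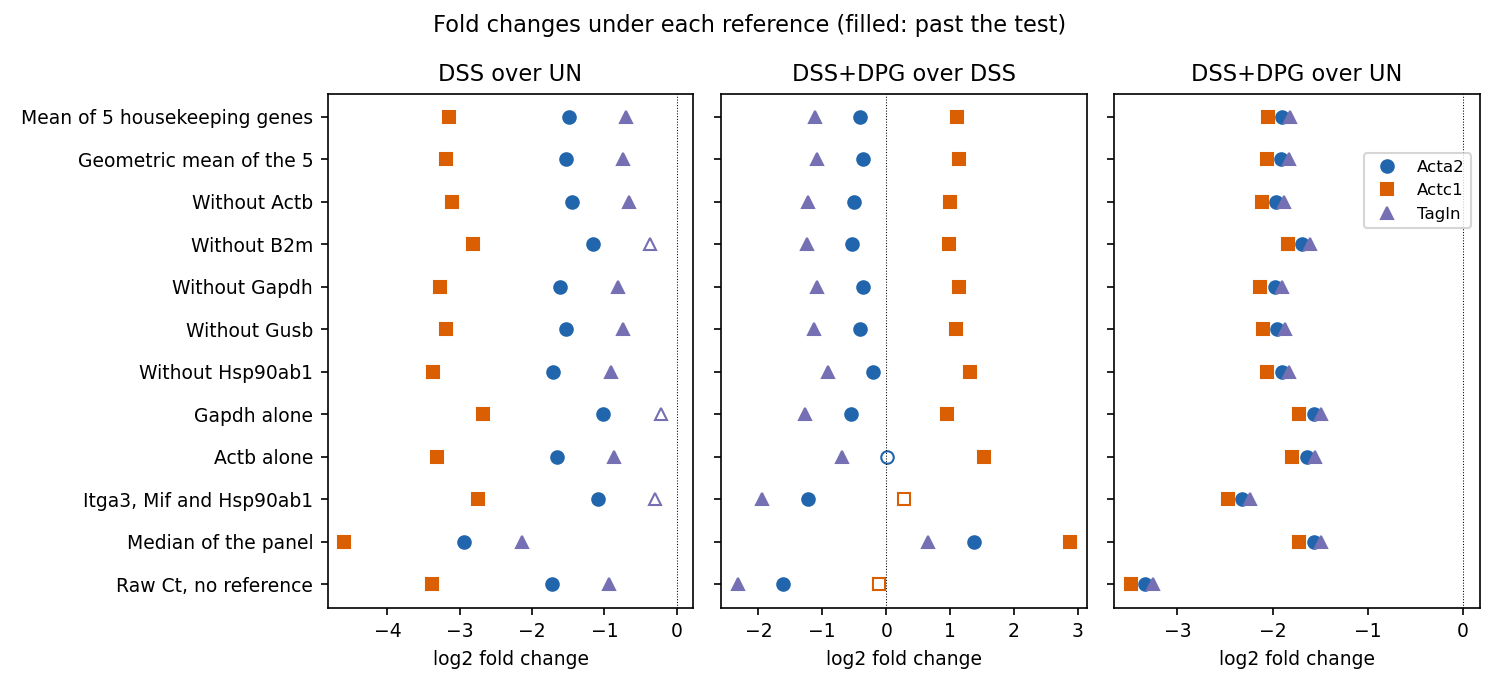
Log2 fold changes of Acta2, Actc1 and Tagln in the 3 comparisons (columns) under the reference used in the text, top row, and under 11 others, with filled symbols for values past the test. A change of reference moves the 3 genes together, and in DSS+DPG over DSS it takes Acta2 and Tagln to either side of zero. Actc1 also falls just below zero there in raw Ct (-0.11, not past the test).

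Rac1 had a Ct of 24.8, 24.76 and 24.78 in DSS+DPG against 22.82, 22.68 and 22.77 in DSS. Relative to the housekeeping genes it was 1.76-fold lower under DPG (log2 fold change -0.81, limma adjusted p = 3.52e-08), but higher with the panel median as the reference (0.96). Ctgf fell by 2.65 on the log2 scale, Tgfbr3 by 2.27, Itgav by 1.52, Itgb6 by 0.94, Tgfb1 by 0.71 and Itgb5 by 0.34, while with the panel median as the reference only Ctgf and Tgfbr3 of these fell and the others rose.

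The comparison of DSS+DPG with UN placed the co-treated colon against the uninjured one, and all 3 genes were lower, by 3.52-fold to 4.14-fold. Actc1 was 4.14-fold lower (log2 fold change -2.05, SE 0.10, limma adjusted p = 3.37e-07). Acta2 was 3.72-fold lower (log2 fold change -1.90, SE 0.028, limma adjusted p = 5.97e-10). Tagln was 3.52-fold lower (log2 fold change -1.82, SE 0.18, limma adjusted p = 1.92e-05). The level left was 24.1% of UN for Actc1 (95% interval 20.4% to 28.6%), 26.9% for Acta2 (25.7% to 28.1%) and 28.4% for Tagln (21.3% to 37.8%), and the 3 intervals overlap. Of the 82 genes tested here 91.5% passed, 69.5% as lower, 93.9% had arrays that did not overlap, and the median log2 fold change was -0.69. Actc1 ranked 8th, Acta2 11th and Tagln 14th from the lowest, and each was lower under all 11 other references. All 3 were here past 3.5-fold, the size of the threshold in the study's methods, under 26 of 29 alternatives for Actc1, 25 for Acta2 and 22 for Tagln. Without B2m in the reference Acta2 was 3.22-fold and Tagln 3.05-fold lower, short of that threshold. The study applied it to DSS against UN, for genes that rose, and to DSS+DPG against DSS, not to this comparison. In those 2 comparisons, relative to the 5 housekeeping genes, Acta2 (2.81-fold and 1.32-fold) and Tagln (1.62-fold and 2.17-fold) fell short of it. On this reference Actc1 was past it only as a fall in DSS against UN (8.89-fold), beside 2.15-fold in DSS+DPG against DSS. Of the 29 alternatives, 2 took Tagln past the threshold in DSS+DPG against DSS, at up to 5.02-fold, and 1 took Actc1 past it there. In DSS against UN 1 took Acta2 past it and 1 Tagln. The paper's own fold change for Tagln in DSS+DPG against DSS was past the threshold.

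**Figure D3:**
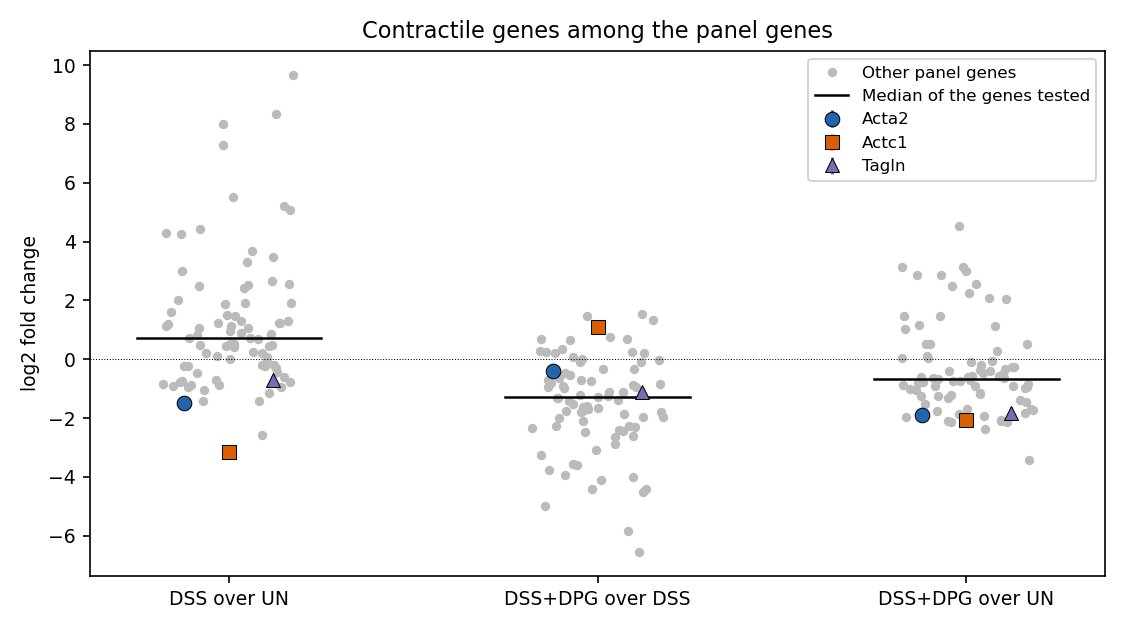
Log2 fold changes of the panel genes in the 3 comparisons, with Acta2, Actc1 and Tagln as coloured symbols, the other genes as grey points and the median of the genes tested as a line. Actc1 is the lowest point in DSS over UN and among the highest in DSS+DPG over DSS, and the 3 genes stand side by side near the lower edge in DSS+DPG over UN.

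In the same comparison Rac1 was 3.87-fold lower (log2 fold change -1.95), and lower also with the panel median as the reference (-1.63) and in raw Ct (-3.39). Tgfb1 was higher, at a log2 fold change of 0.53, but lower in raw Ct (-0.91). Tgfbr3 (-0.96), Itgav (-0.65), Itgb5 (-0.57) and Itgb6 (-0.49) were lower past the test, and lower too with the panel median as the reference and in raw Ct. Ctgf, with -3.42 (SE 0.33), was the lowest of the 82 genes, but its DSS+DPG arrays were spread, at Ct 30.51, 29 and 30.13.

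Setting the contractile genes against each other within an array needs no housekeeping gene. The Ct of Actc1 minus that of Acta2 was 9.38, 9.36 and 9.34 in DSS+DPG, 10.78, 10.93 and 10.89 in DSS and 9.44, 9.02 and 9.16 in UN. DSS stood apart from both other groups, while DSS+DPG fell within the range of UN. In raw Ct, DSS+DPG was later than DSS by 1.61 cycles for Acta2 and by 0.11 cycles for Actc1, whose Ct was late in both. Relative to Acta2, Actc1 was 3.16-fold lower in DSS than in UN (log2 fold change -1.66, SE 0.10, limma adjusted p = 6.10e-07) and 2.84-fold higher with DPG added (1.51, SE 0.10, adjusted p = 1.74e-06). Between DSS+DPG and UN the difference was -0.15 (95% interval -0.39 to 0.081, adjusted p = 0.188), and without the first UN array it was -0.27 and passed. With Acta2 as the reference 96.4% of the 83 other genes passed in DSS against UN, 90.4% in DSS+DPG against DSS and 85.2% of 81 in DSS+DPG against UN.

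Tagln minus Acta2 was -0.09 cycles on all 3 DSS+DPG arrays, -0.84, -0.8 and -0.77 in DSS and -0.48, 0.3 and 0.15 in UN. DSS again lay outside the other groups, and the wide UN range enclosed DSS+DPG. Relative to Acta2, Tagln was 1.73-fold higher in DSS than in UN (log2 fold change 0.79, SE 0.18, limma adjusted p = 0.00285) and 1.64-fold lower with DPG added (-0.71, SE 0.18, adjusted p = 0.00548). Between DSS+DPG and UN it was 0.08 (95% interval -0.34 to 0.50, adjusted p = 0.667). Without the third array of each group the first 2 of these differences were 0.73 (adjusted p = 0.0536) and -0.73 (adjusted p = 0.0581). The error of the -0.73 includes the UN scatter, since 1 fit served all groups. Without the first UN array the difference between DSS+DPG and UN was 0.32 and passed the test.

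Actc1 minus Tagln was 9.47, 9.45 and 9.43 cycles in DSS+DPG, 11.62, 11.73 and 11.66 in DSS and 9.92, 8.72 and 9.01 in UN. On each array this is the Actc1 to Acta2 difference less the Tagln to Acta2 difference, so the pair adds no separate result. DSS was apart from every array of the other groups. Relative to Tagln, Actc1 was 5.48-fold lower in DSS than in UN (log2 fold change -2.45, SE 0.25, limma adjusted p = 2.01e-06) and 4.66-fold higher with DPG added (2.22, SE 0.25, adjusted p = 5.87e-06). Between DSS+DPG and UN the difference was -0.23 (95% interval -0.78 to 0.32, adjusted p = 0.389), and without the first UN array it was -0.59 and passed the test. The errors of this pair come from the fit with Actc1 as the reference, an alternative added after seeing the data, in which 98.8%, 92.8% and 80.2% of the other genes passed in DSS against UN, DSS+DPG against DSS and DSS+DPG against UN. With Tagln as the reference its scatter in UN entered every gene, so the smaller p-values of that fit (2.94e-17 and 2.62e-14 for the comparisons with DSS) are too small, and 74.7%, 68.7% and 75.3% of the genes passed.

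By the exact two-sided permutation test over arrays, each pair gave p = 0.1, the smallest that 3 against 3 allows, in both comparisons with DSS, and p of 0.4, 1 and 0.7 in DSS+DPG against UN for Actc1 to Acta2, Tagln to Acta2 and Actc1 to Tagln. All of these comparisons share arrays, so they are not independent of each other.

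**Figure D4:**
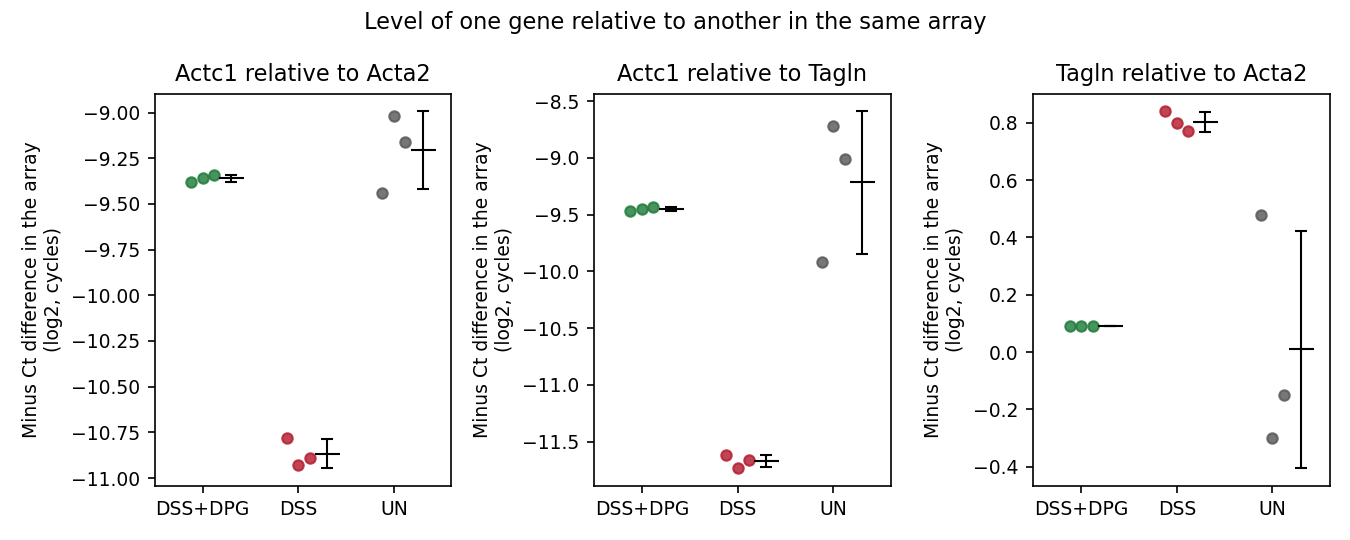
Minus the within-array Ct difference (log2 scale, cycles) for the 3 pairs of contractile genes on the 3 arrays of each group, with the mean and SD beside the points. In each panel the DSS arrays stand apart and the DSS+DPG arrays fall within the range of the UN arrays.

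The genes whose pattern was most like that of each contractile gene were sought by the SD, over the 9 arrays, of the within-array Ct difference, among 72 other genes with every Ct below 35. Nearest to Acta2 was Egf, the epidermal growth factor (SD 0.17 cycles), and next Rac1 (0.19), while Tagln ranked sixth (0.43) and Actc1 27th (0.80). The median SD of Acta2 against all of them was 0.98 cycles. For Actc1 they were Acta2 (0.80), Egf (0.83) and Cdh1 (0.93) beside a median of 1.67, so even the nearest gene was far from it. For Tagln, Rac1 ranked second (0.30) and Ctsl, the lysosomal protease cathepsin L, the third (0.35), beside a median of 0.79, with Acta2 ninth and Actc1 51st. These SDs are descriptions over arrays that share 3 RNA pools. Egf, the nearest gene to Acta2, had a log2 fold change of -1.42 in DSS against UN and -1.74 in DSS+DPG against UN, and in DSS+DPG against DSS its -0.32 did not pass (limma adjusted p = 0.0636), while it was higher with the panel median as the reference (1.45) and lower in raw Ct (-1.53), past the test in both.

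Markers of other cell types moved in the same comparisons, and their part in the contractile results was not tested. Summed over the list and given as log2 relative to the housekeeping genes, the 7 fibroblast collagens lay at 0.0037 to 0.061 in DSS+DPG, 3.11 to 3.21 in DSS and 1.86 to 1.88 in UN. In DSS against UN 5 of these 7 rose and Col14a1 fell, but none rose and 6 fell with the panel median as the reference. With DPG added to DSS all 7 fell, led by Col3a1 (log2 fold change -3.55), but 2 rose and 2 fell with the panel median as the reference. Against UN, 6 of the 7 fell in DSS+DPG, led by Col5a2 (-2.15). Col3a1 was the most strongly amplified of the 7 and weighs most in the sum, and the median log2 fold change over the list in DSS against UN was 0.20. Col14a1 was highest in UN, and Col5a3 did not pass in DSS against UN (limma adjusted p = 0.725).

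The 4 epithelial genes summed to -1.19 to -1.17 in DSS+DPG, -1.46 to -1.41 in DSS and -0.61 to -0.46 in UN. In DSS against UN 3 of them fell, led by Cdh1 (log2 fold change -1.05), in DSS+DPG against DSS 2 rose, Cdh1 among them (0.29), though all 4 fell in raw Ct, and in DSS+DPG against UN 3 fell and Itga3 rose (0.27), though it too fell in raw Ct. Relative to the housekeeping genes this sum was lowest in DSS, but Cdh1 was the most strongly amplified of the 4 and weighs most in it. Mean delta Ct was latest in DSS for Cdh1 (1.82). For Itga2 it was latest in DSS+DPG (5.88, beside 5.79 in DSS). For Itga3 it was latest in UN (4.40, beside 4.38 in DSS). Itga6 did not pass between DSS+DPG and DSS (limma adjusted p = 0.175).

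The 4 neutrophil and macrophage genes summed to -4.15 to -4.11 in DSS+DPG, -0.54 to -0.52 in DSS and -4.71 to -4.66 in UN. All 4 rose in DSS against UN, led by Il1b (log2 fold change 7.27), with 3 higher and 1 lower when the panel median was the reference, and all 4 fell in DSS+DPG against DSS. In DSS+DPG against UN 2 rose, led by Il1b (2.87), and 2 fell, led by F13a1 (-0.90), while in raw Ct 1 rose and 3 fell. The 4 lymphocyte genes summed to -7.61 to -7.36 in DSS+DPG, -6.86 to -6.82 in DSS and -9.99 to -9.76 in UN. All 4 rose in DSS against UN, led by Ifng (5.21), though with the panel median as the reference only 1 did. With DPG added to DSS 3 fell, led by Il4 (-1.98), and Cd40lg rose (1.55), with 3 higher and none lower when the panel median was the reference. In DSS+DPG against UN 2 rose, led by Ifng (4.52), and Il4 fell (-0.92), while in raw Ct 2 rose and 2 fell. No marker on these lists was at the Ct limit of 38 on all arrays of a group, and Il2 came latest, at 37.56 to 38 in DSS+DPG.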

How the data were processed

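Total colon RNA was reverse transcribed and amplified by the authors with SYBR green over 40 cycles on a real-time PCR array. The deposited raw Ct, a log2 scale, came 1 column per array. Deposited mean Ct matched it within 0.00333 cycles for the contractile genes. Deposited mean delta Ct, also log2, was taken against Itga3, Mif and Hsp90ab1 (geometric mean) and was kept as an alternative reference. The authors' fold changes and p-values, in other deposited columns, were not used. Gene symbols are those of the deposited table, and 83 of the 84 accessions matched RefSeq, 81 under the same symbol.

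A well with no Ct or a Ct above 38 was set to 38, and genes at this limit in both groups were not tested. All 9 arrays entered a single limma 3.58.1 model of minus delta Ct (R 4.3.3) without a replicate term, and p-values were adjusted by Benjamini-Hochberg over the panel genes, with a threshold of 0.05. Within-array ratios were tested in the same fit with Acta2, Tagln or, chosen after seeing the data, Actc1 as the reference. Single values used exact two-sided permutation tests. Scripts were tested on simulated data, with 20 sets of 84 genes per comparison. The alternatives were other references, the methods' t-test, other limits on late wells, replicate blocks and each array left out. Figures were drawn with matplotlib 3.10.9. Replicate numbers come from the sample titles. Deviations of arrays with the same number correlated over 73 genes in DSS and UN (0.38, 0.34 and 0.23), which the labels do not account for, since each group was 1 pool.

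The genes named were the contractile genes, the array's other cytoskeleton genes, the housekeeping genes, a list around TGF beta, the 3 genes most like each contractile gene, and the largest rise and fall in each marker list. Some genes that this rule names are not reported here, so no count over the cytoskeleton class or the TGF beta list is given. The contractile genes and all lists were chosen with earlier results of these data known.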

Additional observations from a re-analysis of the deposited data

How the results depend on the processing

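All values are log2 fold changes. In DSS+DPG against DSS, Acta2 changed sign with Actb alone (0.017, adjusted p = 0.864) and with the panel median as the reference (1.37). Tagln changed sign with the panel median (0.66). Actc1 gave 0.28 with Itga3, Mif and Hsp90ab1 (adjusted p = 0.0794) and -0.11 in raw Ct (adjusted p = 0.305). In DSS against UN, Tagln did not pass without B2m (-0.37, adjusted p = 0.0801), with Gapdh alone (-0.22, adjusted p = 0.201), with Itga3, Mif and Hsp90ab1 (-0.29, adjusted p = 0.166) or by the methods' t-test after Benjamini-Hochberg (-0.70, adjusted p = 0.0861). The causes were not tested.

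With arrays left out in turn, Tagln in DSS against UN ranged over -0.86 to -0.47 and did not pass without replicate 3. In DSS+DPG against UN, Actc1 relative to Acta2 ranged over -0.27 to -0.06, Tagln relative to Acta2 over -0.075 to 0.315 and Actc1 relative to Tagln over -0.585 to 0.015. Each of these passed without the first UN array, and the last 2 changed sign without the second. Tagln relative to Acta2 ranged over 0.64 to 1.03 in DSS against UN and over -0.73 to -0.70 in DSS+DPG against DSS, and missed the test in both without replicate 3.

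With the replicate number as a block, 77 panel genes passed in DSS against UN, 75 in DSS+DPG against DSS and 76 in DSS+DPG against UN, beside 77, 75 and 75 without it, and no call on a contractile gene or pair changed. Arrays with the same number did not deviate together in DSS+DPG and DSS (correlations 0.061, 0.078 and -0.12) or in DSS+DPG and UN (0.14, 0.17 and -0.076). Over all alternatives 67 to 79, 68 to 79 and 69 to 78 panel genes passed.

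The panel's split moved with the reference. DSS against UN had 61 higher and 16 lower with Gapdh alone, beside 52 and 25. DSS+DPG against DSS, with 11 higher and 64 lower, had 48 and 25 with the panel median, 2 and 75 with Itga3, Mif and Hsp90ab1, and 0 and 78 in raw Ct. DSS+DPG against UN, with 18 higher and 57 lower, had 25 and 46 with the panel median. The median over all panel genes was -0.74 in DSS against UN, 0.47 in DSS+DPG against DSS and -0.36 in DSS+DPG against UN with the panel median as the reference, and 0.48, -2.51 and -2.13 in raw Ct. The number of arrays and the single pool per group limit all of these values, and the late Ct of Actc1 limits its own.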

Other observations

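The Ct difference between Tagln and Acta2 was the same to 2 decimals, -0.09 cycles, on all 3 DSS+DPG arrays. Of 2628 pairs among 73 panel genes, 9 (0.342%) had the same difference on the 3 DSS+DPG arrays, 10 (0.381%) on the DSS arrays and 6 (0.228%) on the UN arrays. Tagln with Acta2 was the only such pair that held a contractile gene, in any group.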
